A study of Drosophila melanogaster with 10 samples.

Results

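The contacts described here are those of the light locus in the pericentromeric heterochromatin of chr2L, measured by 5C in the Drosophila S2 cell line. The members are the pairs that join 1 of the 4 bins around light (chr2L 22796057 to 22836057, dm3) to any other chr2L bin, and the rule gave 412 of the 5671 bin pairs of chr2L and of the 40796 bin pairs on 5 chromosome arms. The light gene (lt, CG18028) lies at chr2L:22817527-22835867. The locus was chosen by its position, with earlier results of these scores known, and bins were merged by their scores: the first 3 bins of the locus carried identical scores with every partner in all 9 libraries and were treated as 1. This left 2 profiles. Segment 1 spans 30 kb (chr2L:22796057-22826057) and holds 8.53 kb of light, and segment 2 spans 10 kb (chr2L:22826057-22836057) and holds the other 9.81 kb. The 103 partner bins, 89 on the telomere side and 14 on the centromere side, formed 91 runs after merging, and the longest run had 5 bins. Of the 182 distinct members, 176 had a score in all 9 libraries, 1 in some of them only, and 5 in none. Because the 3 bins of segment 1 share their values, they are 1 measurement and not 3.

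The light gene encodes the fly Vps41 protein, a subunit of a complex that tethers vesicles to lysosomes and pigment granules, and eye colour in the fly depends on it. It is a classic heterochromatic gene: it lies within pericentromeric heterochromatin and is known to lose activity when it is moved away from that setting, the reverse of how euchromatic genes behave. Heterochromatin of this kind carries methylated H3K9. Su(var)3-9 is a histone methyltransferase that places this mark, and HP1a is a chromodomain protein that binds it.

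The samples were 3 libraries of untreated wild-type S2 cells (WT), 2 of cells transfected with dsRNA against GFP (mock RNAi), 2 with dsRNA against HP1a and 2 with dsRNA against Su(var)3-9. The dsRNA dose was 1 µg and cells were taken 3 days later. S2 is an established line derived from embryos. In 5C, primers at EcoRI fragment ends report which fragments were ligated together in crosslinked chromatin.

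A score is the log2 ratio of observed over expected contacts for a pair of bins, so by definition 0 marks a contact as frequent as its distance predicts and a positive score a more frequent one. The deposited scores did not meet this exactly. In every library the median of the other chr2L pairs was lower at 400 kb and over than under 100 kb. In WT replicate 1 these medians were −0.58 and −0.19. Scores of exactly 0 were taken as missing. The median score of the other chr2L pairs was −0.47, −0.06 and −0.36 for WT, then −0.89 and −0.58 for mock RNAi, then −0.51 and −0.25 for HP1a RNAi, then −0.47 and −2.42 for Su(var)3-9 RNAi. Su(var)3-9 RNAi replicate 2 thus stood below the other libraries over the whole arm. For this reason a relative score is given beside the deposited one: the score minus the mean of the chr2L pairs outside the locus at the same distance in the same library. The files hold no read counts. In the sequencing statistics of the study every depleted library had fewer reads with the EcoRI site than every control library, and depth therefore cannot be told apart from depletion in what follows.

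In control cells the contacts of segment 1 were concentrated on its telomere-side flank. The adjoining bin (chr2L:22786057-22796057, 10 kb away) had the highest score of all partners, with 2.21, 2.34 and 2.73 in the WT libraries and 2.32 and 2.69 in the mock RNAi libraries. The next 5 bins (chr2L:22736057-22786057), which shared 1 value, scored 0.74, 1.40 and 1.61 in WT and 1.05 and 1.55 in mock RNAi. All 5 control libraries were positive at both partners.

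Farther out, 1 bin stood above its neighbours. The bin at chr2L:22656057-22666057, 140 kb away, scored 0.45, 0.79 and 0.96 in WT and 0.14 and 0.43 in mock RNAi. The bins at 130 kb and 160 kb were negative in each of these 5 libraries. The other partners among the 5 highest in WT were the bin at chr2L:22726057-22736057, at 0.07 ± 0.70 (SD, n = 3), and the bin at chr2L:22646057-22656057, at 0.05 ± 0.23, neither beyond the spread of its replicates around 0.

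The flank of segment 1 toward the centromere was different. The first bin on that side (chr2L:22836057-22846057, 20 kb away) scored 0.01, −0.13 and −0.41 in WT and 0.13 and −0.08 in mock RNAi, and the next (chr2L:22846057-22856057) scored −0.32, −0.06 and 0.16 in WT and 0.42 and −0.04 in mock RNAi. These values lay around 0, and the control values at the partners 10 kb and 20 kb away on the telomere side were all above them. At 50 kb the bin that holds one edge of cta (concertina, a G protein alpha subunit needed for cell shape change in gastrulation) scored −1.36, −0.20 and −0.76 in WT and −1.31 and −1.0 in mock RNAi.

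**Figure D1:**
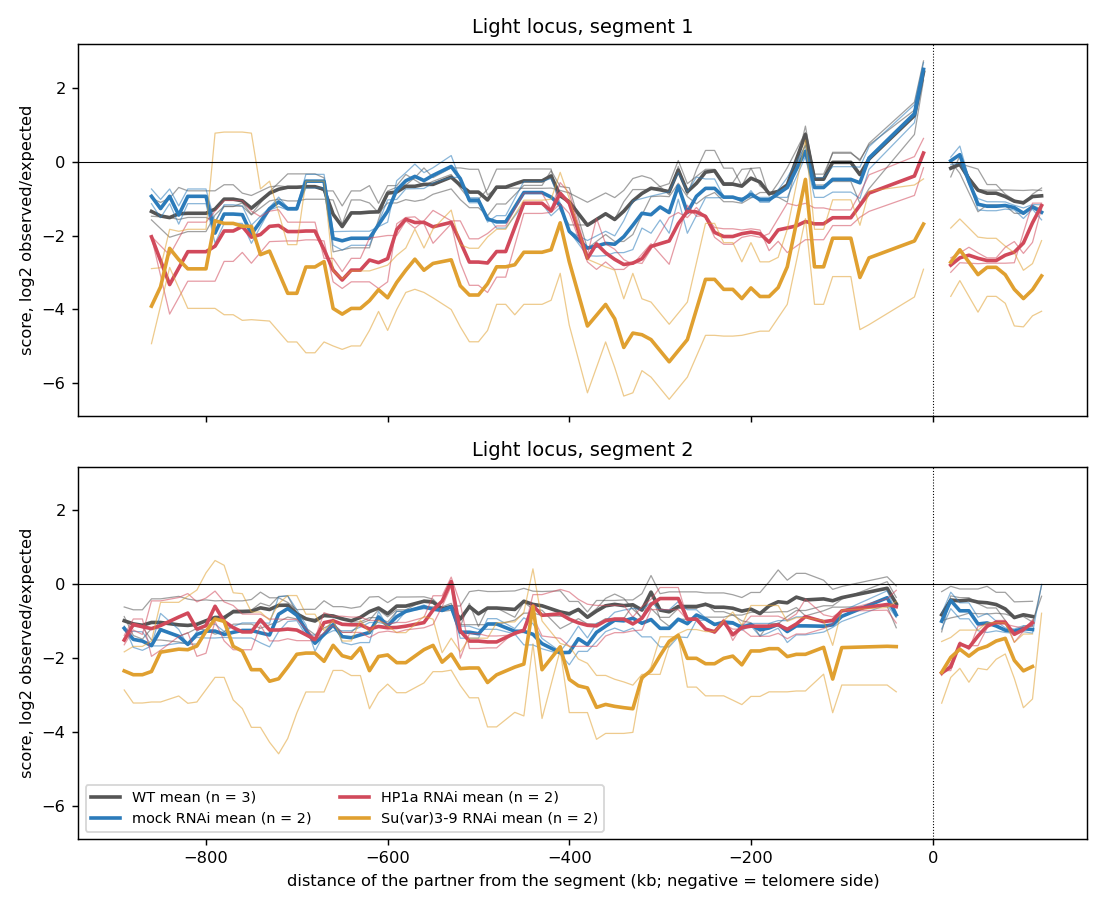
Score (log2 observed over expected) of each partner with segment 1 (top) and segment 2 (bottom) against the distance of the partner in kb, negative toward the telomere, with thin lines for single libraries and thick lines for group means. In segment 1 the control lines peak above 2 at the adjoining telomere-side bin, and the lines of both depletions run below them at most partners, while in segment 2 the HP1a RNAi lines overlap the controls at most distances.

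The lowest partners of segment 1 in WT lay far out on the telomere side. They were the bin at chr2L:22146057-22156057, at −1.76 ± 0.60 (SD, n = 3), the run at chr2L:22406057-22426057, at −1.72 ± 0.63, and the bin at chr2L:22426057-22436057, at −1.57 ± 0.59. RpL5, which encodes a protein of the large ribosomal subunit, lies mostly in the last of these bins and reaches into the run, which is called the RpL5 run here, and the bin also holds part of CG17490. The mock RNAi libraries lay between −2.56 and −1.89 at these 3 partners, so the controls were low there throughout.

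Segment 2, which holds the larger part of light, had a flatter profile. Its highest partner in WT was the run at chr2L:22736057-22786057, 50 kb away, with −0.60, 0.20 and 0.07 in WT and −0.55 and −0.18 in mock RNAi. The bin with the highest score in segment 1 scored −1.18, −0.05 and −0.36 with segment 2 in WT and −0.90 and −0.76 in mock RNAi. No partner of segment 2 was positive in all 5 control libraries. The other partners among its 5 highest in WT, 100 kb to 310 kb away, had means between −0.40 and −0.21 with SDs between 0.28 and 0.56 (n = 3), and its 3 lowest, all 820 kb or more away, had means between −1.12 and −1.10.

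As a description of how far replicates gave the same profile, Pearson correlations were taken over the partners, which share fragments through the smoothing and are not independent. For segment 1 the correlation was 0.67 to 0.83 between WT libraries, 0.77 to 0.83 between WT and mock RNAi libraries and 0.90 between the mock RNAi libraries. It was 0.47 between the HP1a RNAi libraries, 0.60 between the Su(var)3-9 RNAi libraries, and averaged 0.51 between WT and HP1a RNAi and 0.34 between WT and Su(var)3-9 RNAi. The depleted libraries were thus less like each other than the controls were among themselves, and on average less like the controls. HP1a RNAi replicate 1 reached the control range with WT replicates 1 and 3 and mock RNAi replicate 2, at 0.69, 0.68 and 0.70. It was at 0.61 with WT replicate 2 and 0.56 with mock RNAi replicate 1. HP1a RNAi replicate 2 was at 0.31 to 0.38 with the controls. For segment 2 the mean was 0.36 within WT and the value 0.49 within mock RNAi, so its profile was less repeatable in controls as well.

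Segment 1 as a whole was lower in both depletions than in the controls. The median score of segment 1 over 88 partners was −1.06, −0.65 and −0.72 for WT, then −1.23 and −0.97 for mock RNAi, then −2.19 and −1.85 for HP1a RNAi, then −2.06 and −4.31 for Su(var)3-9 RNAi. The means were −0.81 ± 0.22 (SD, n = 3), −1.10 ± 0.18 (n = 2), −2.02 ± 0.24 (n = 2) and −3.18 ± 1.59 (n = 2). All 4 depleted libraries lay below all 5 control libraries.

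The depleted libraries were also the lowest when the level of the arm was removed. The median relative score of segment 1 was −0.51, −0.49 and −0.36 for WT, then −0.24 and −0.29 for mock RNAi, then −1.62 and −1.55 for HP1a RNAi, then −1.70 and −1.93 for Su(var)3-9 RNAi. Su(var)3-9 RNAi replicate 2, the outlying library on the deposited scale, lay close to replicate 1 on this scale. The difference from mock RNAi was −1.32 in HP1a RNAi and −1.55 in Su(var)3-9 RNAi, and with any 1 library left out it stayed between −1.35 and −1.28 and between −1.67 and −1.44. Since the members were selected on their position with results known, no p-value is given for these medians.

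Segment 2 did not show this separation on the deposited scale. Its median score was −0.90, −0.34 and −0.85 for WT, then −1.28 and −1.05 for mock RNAi, then −1.29 and −0.94 for HP1a RNAi, then −1.12 and −2.94 for Su(var)3-9 RNAi, so every library but Su(var)3-9 RNAi replicate 2 lay between −1.29 and −0.34 and the groups overlapped. As relative scores the medians were −0.40, −0.19 and −0.50 for WT, then −0.34 and −0.44 for mock RNAi, then −0.69 and −0.58 for HP1a RNAi, then −0.71 and −0.61 for Su(var)3-9 RNAi. The depleted libraries were lower here too, by less than in segment 1. Within each library, segment 1 minus segment 2 had a median over 88 partners of −0.12, −0.30 and 0.12 for WT, then 0.03 and −0.01 for mock RNAi, then −0.83 and −0.87 for HP1a RNAi, then −0.82 and −1.33 for Su(var)3-9 RNAi. Segment 2 scored above segment 1 at 80 and 82 of 88 partners in HP1a RNAi and at 76 and 83 in Su(var)3-9 RNAi, against 37 and 44 in mock RNAi and 58, 69 and 22 in WT. In WT replicates 1 and 2 segment 2 was thus the higher one at most partners as well, at fewer than in the depleted libraries.

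**Figure D2:**
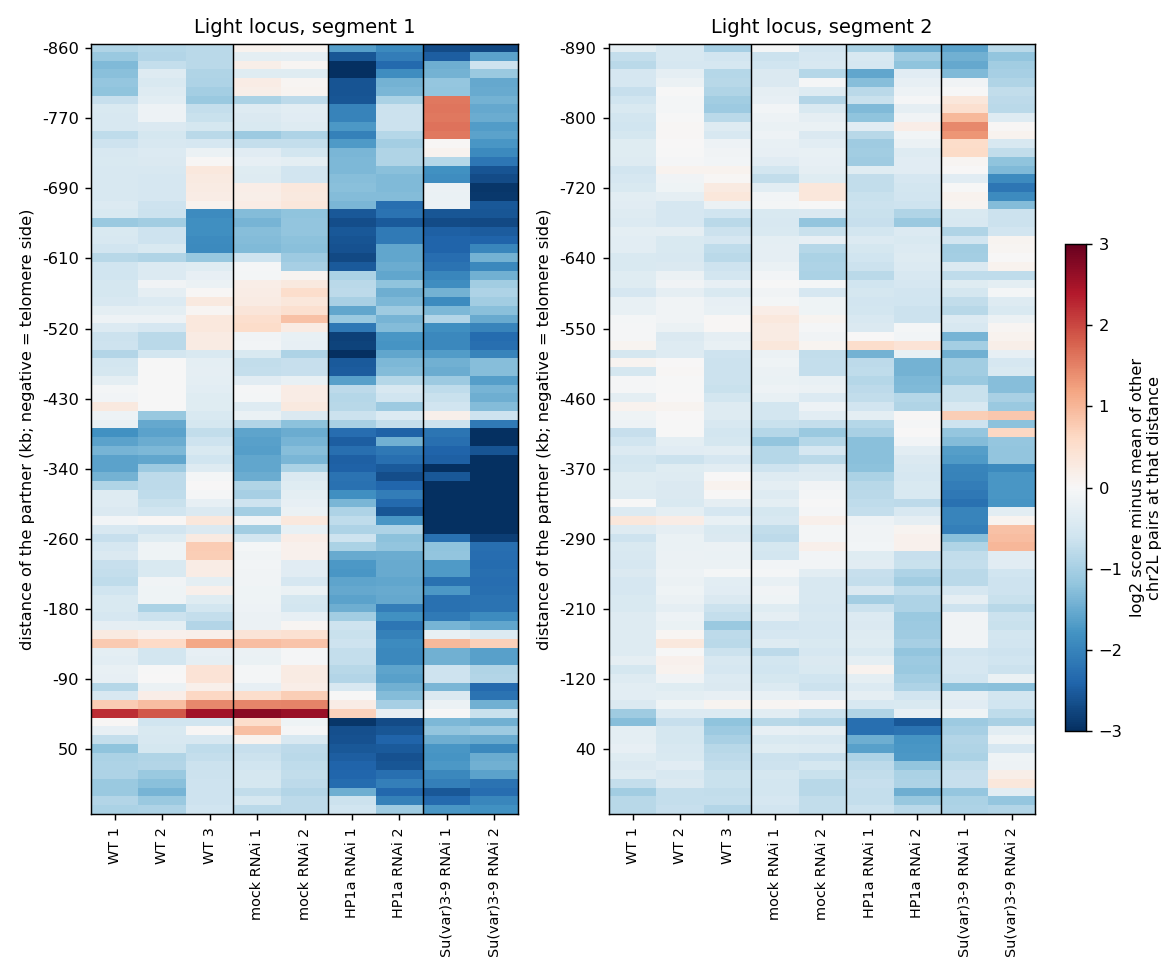
Relative score of each partner (rows, from the telomere side at the top to the centromere side at the bottom, labelled by distance in kb) in the 9 libraries (columns) for segment 1 and segment 2. Colours run from −3 (blue) to 3 (red) on the log2 scale, and in segment 1 the blue spreads over most partners in the 4 depleted libraries, the red rows 10 kb, 20 kb and 140 kb away in the controls fade in HP1a RNAi, and the row at 140 kb is red in Su(var)3-9 RNAi.

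Among the chr2L bins, segment 1 stood apart from its neighbours. For each of 99 positions with at least 50 partners, both segments included, the median difference from mock RNAi was taken after subtracting the mean of the arm at each distance. Segment 1 was the lowest of the 99 in HP1a RNAi, at −1.24, where the next lowest position, the adjoining bin at chr2L:22786057-22796057, was at −0.44 and the median of the positions outside the locus was 0.06. In Su(var)3-9 RNAi it was again the lowest, at −1.45, against −0.91 for the next (chr2L:21956057-21966057) and a median of 0.02. Segment 2, which adjoins segment 1, ranked 8 and 24 from the lowest, at −0.22 and −0.18.

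Both depletions were set against the same mock RNAi libraries, so the ranks are not independent of each other. With WT in place of mock RNAi, segment 1 was also the lowest position, at −1.08 in HP1a RNAi and −1.13 in Su(var)3-9 RNAi. For mock RNAi minus WT it ranked 88 of 99, at 0.09. Ranked by its own level within each library, segment 1 was the lowest position in each of the 4 depleted libraries, at levels between −1.65 and −1.42, and ranked 1, 2 and 8 in WT and 8 and 9 in mock RNAi, at levels between −0.45 and −0.16. Its contacts were therefore low for their distance in the controls already, and lower than those of any other ranked chr2L position in the depleted libraries.

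**Figure D3:**
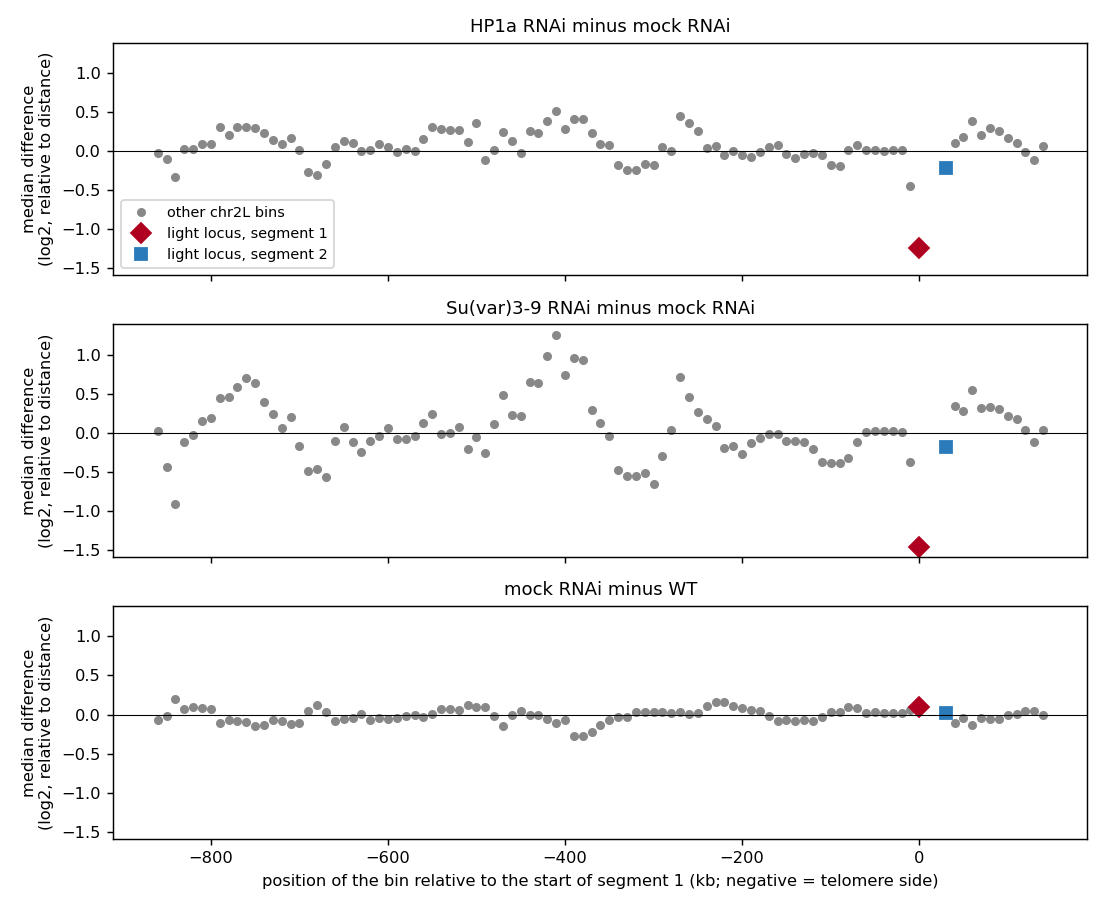
Median difference of each chr2L bin (log2, with the mean of the arm at each distance subtracted) against its position from the start of segment 1 in kb, for HP1a RNAi minus mock RNAi (top), Su(var)3-9 RNAi minus mock RNAi (middle) and mock RNAi minus WT (bottom). Segment 1 is the lowest point of the upper 2 panels, at −1.24 and −1.45, and lies among the other bins in the lowest panel, at 0.09.

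In HP1a RNAi the first 2 bins on the centromere side of light were the called members with the smallest p. The first centromere-side bin fell from 0.13 and −0.08 in mock RNAi to −3.0 and −2.61, and the second from 0.42 and −0.04 to −2.74 and −2.47. The groups were far apart at both, and the WT libraries overlapped mock RNAi. On scores with the mean of the arm at each distance subtracted, the differences were −2.90 (SE 0.29, adjusted p = 0.0103) and −2.89 (SE 0.29, adjusted p = 0.0103) by limma, and on the deposited scores −2.83 (SE 0.53) and −2.79 (SE 0.50), both with an adjusted p of 0.235.

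On the telomere side the adjoining bin and the bin 140 kb away were lower by the test, and the run between them did not pass it. The adjoining bin scored 0.63 and −0.16 in HP1a RNAi, against 2.32 and 2.69 in mock RNAi, a difference of −2.36 (SE 0.35, adjusted p = 0.0258) after subtracting the mean at each distance. The next 5 bins scored 0.14 and −0.91, against 1.05 and 1.55, a difference of −1.76 (SE 0.46, adjusted p = 0.108) on the same scale. Segment 1 with the bin 140 kb away scored −1.13 and −2.11, against 0.14 and 0.43, a difference of −2.08 (SE 0.36, adjusted p = 0.037). At each of these 3 partners the HP1a RNAi libraries lay below all 5 control libraries.

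Over all members, 0 of 176 passed an adjusted p of 0.05 for HP1a RNAi against mock RNAi on the deposited scores, where 0% of all 23426 bin pairs were called, and at an unadjusted p under 0.05 there were 18 lower members in segment 1, 2 in segment 2 and 0 higher. The counts at the unadjusted p have no share of all bin pairs beside them and cannot be judged against it. With the mean at each distance subtracted, 21 of 176 members were lower and 0 higher, against 0.499% lower and 0.393% higher among all bin pairs. Of these 21, 19 were contacts of segment 1: all 8 centromere-side partners under 100 kb, 8 telomere-side partners at 400 kb and over, and 3 nearer ones. The 2 of segment 2 were its own first 2 centromere-side bins, at −1.50 (SE 0.23) and −1.87 (SE 0.30). Both HP1a RNAi libraries lay below both mock RNAi libraries at 79 of the 88 partners of segment 1 and 31 of the 88 of segment 2, and above them at 0 and 5, where 26.4% and 28.6% of all bin pairs did so in the 2 directions. The median difference over segment 1 was −1.21 on this scale, beside 0.02 over all bin pairs and 0.06 over the chr2L pairs.

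The call for HP1a RNAi depended on the libraries, and the calls among all bin pairs fell or rose with it. The 21 members became 0 without mock RNAi replicate 1, 3 without mock RNAi replicate 2, 6 and 7 without WT replicates 1 and 2, 11 and 12 without HP1a RNAi replicates 1 and 2, and 42 without either Su(var)3-9 RNAi library, where 1.64% of all bin pairs were called lower. Without WT replicates 1 and 2, 0.0811% and 0.0896% of all bin pairs were called lower. With any HP1a RNAi or mock RNAi library left out, the median difference over the members on this scale stayed between −0.64 and −0.56, beside −0.62 with all libraries. On the deposited scores, a fit of the HP1a RNAi and mock RNAi libraries alone called 29 members, all lower, where 0.394% of all bin pairs were called lower and 4.48% higher.

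No member was higher in HP1a RNAi by the test. The higher members with the smallest p among those whose groups did not overlap were contacts of segment 2: with the RpL5 run, at −1.46 and −0.14 against −1.89 and −1.82 in mock RNAi (difference 1.05, SE 0.48, adjusted p = 0.470), with the bin at chr2L:22296057-22306057 (0.69, SE 0.35, adjusted p = 0.499) and with the bin at chr2L:22536057-22546057 (0.81, SE 0.45, adjusted p = 0.533). WT scored −1.20, −0.18 and −0.87 at the RpL5 run, so mock RNAi lay below WT there as well. After the first 2 centromere-side bins, the lower member with the smallest p on the deposited scores was segment 1 with the bin at chr2L:21956057-21966057, at −4.13 and −2.53 against −1.14 and −0.74 (difference −2.39, SE 0.58, adjusted p = 0.306). With the mean at each distance subtracted this member, 840 kb from light, was called lower, at −2.64 (SE 0.36, adjusted p = 0.0246), beyond the adjoining telomere-side bin.

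In Su(var)3-9 RNAi the called members of segment 1 lay at near and far partners on both sides of light. The largest called difference lay 280 kb out: segment 1 with the bin at chr2L:22516057-22526057 scored −4.10 and −6.14, against −1.02 and −0.30 in mock RNAi and −0.58, 0.03 and −0.13 in WT. The difference from mock RNAi was −4.46 (SE 0.60, adjusted p = 0.0272) on the deposited scores and −3.68 (SE 0.31, adjusted p = 0.00172) with the mean at each distance subtracted. The bin at chr2L:22496057-22506057 scored −4.10 and −6.14 too, against −1.58 and −0.87, a difference of −3.89 (SE 0.58, adjusted p = 0.0281). As their Su(var)3-9 RNAi scores were alike, the 2 bins cannot be counted as separate measurements. These scores lay near the lowest of segment 1 in the same libraries, −4.40 and −6.44. HP1a RNAi scored −1.38 and −1.98 at the first of these partners and −1.94 and −2.50 at the second, between the mock RNAi and the Su(var)3-9 RNAi values.

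The adjoining telomere-side bin scored −0.47 and −2.91 in Su(var)3-9 RNAi, a difference from mock RNAi of −4.19 (SE 0.67, adjusted p = 0.0358) on the deposited scores. This SE pools the spread of all 4 groups, whereas the SD at this bin was 1.73 in Su(var)3-9 RNAi and 0.26 in mock RNAi. A fit of only these 2 groups called 0 members on the deposited scores. The next 5 bins scored −0.63 and −3.66, a difference of −2.21 (SE 0.46, adjusted p = 0.0143) after subtracting the mean at each distance. Both partners were negative in both libraries, whereas they were positive in every control library. The first centromere-side bin scored −1.80 and −3.65, a difference of −1.51 (SE 0.29, adjusted p = 0.0106) after subtracting the mean at each distance.

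Not every contact of segment 1 was lower. The bin 140 kb away scored 0.58 and −1.54 in Su(var)3-9 RNAi, which as relative scores was 0.98 and 0.71, beside 0.92 and 0.85 in mock RNAi and 0.79, 0.59 and 1.17 in WT. By limma the difference from mock RNAi was 0.01 (SE 0.36, adjusted p = 0.994) after subtracting the mean at each distance. The Su(var)3-9 RNAi and control values overlapped there, while the relative scores of HP1a RNAi were −0.61 and −1.89. A block 750 kb to 790 kb out (chr2L:22006057-22056057) was above 0 in 1 library only: Su(var)3-9 RNAi replicate 1 scored 0.77 to 0.80, and replicate 2 scored −4.30 to −3.97.

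**Figure D4:**
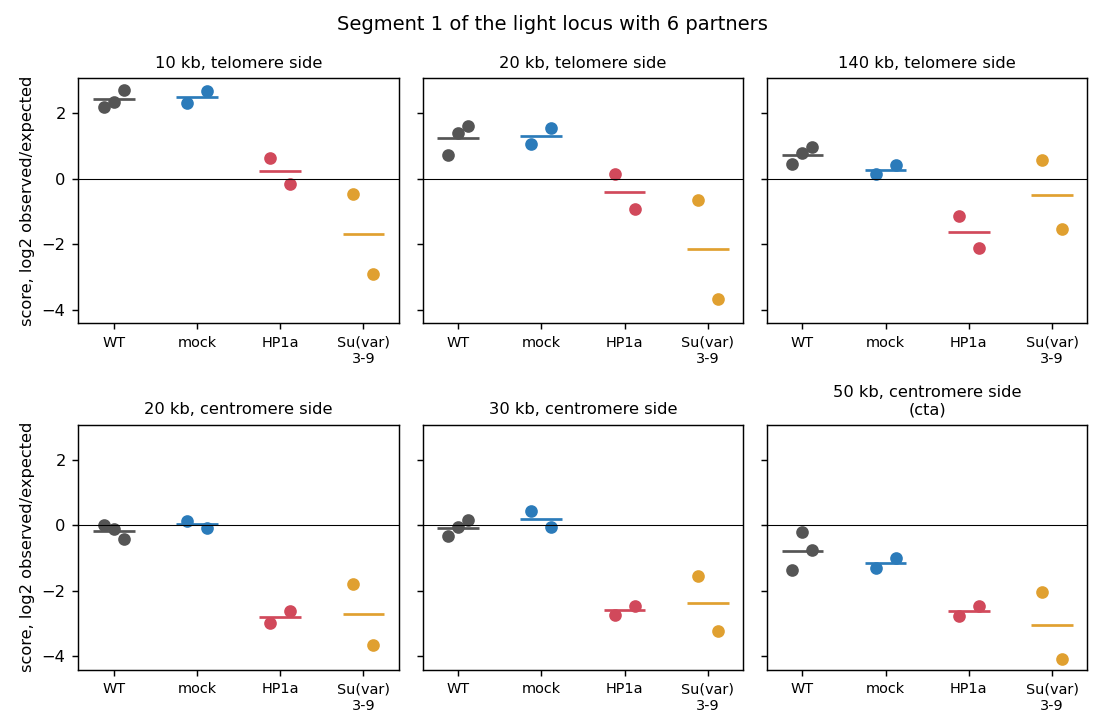
Scores of segment 1 with 6 partners in each library (points) with the group mean (line), on the log2 observed over expected scale, with telomere-side partners in the upper row (10 kb, 20 kb and 140 kb) and centromere-side partners in the lower row (20 kb, 30 kb and 50 kb). HP1a RNAi lies below the controls in all 6 panels, and Su(var)3-9 RNAi overlaps them at 140 kb.

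Over all members, 17 of 176 were lower and 0 higher in Su(var)3-9 RNAi on the deposited scores, against 1.43% lower and 0.162% higher among all bin pairs, and 16 of the 17 were contacts of segment 1. With the mean at each distance subtracted, 62 members were lower and 1 higher, against 9.95% lower and 9.03% higher. Of these, 56 lower members were contacts of segment 1, with 20 telomere-side partners at 400 kb and over, 16 at 200 to under 400 kb, 9 nearer ones, and 11 of the 11 centromere-side partners tested. In segment 2, 6 of 88 members were lower and 1 was higher, in each direction a smaller share than among all bin pairs. Both Su(var)3-9 RNAi libraries lay below both mock RNAi libraries at 78 of the 88 partners of segment 1 and 26 of the 88 of segment 2, and above them at 0 and 7, beside 31.9% and 29.6% of all bin pairs. Segment 2 was under the share of all bin pairs in both directions here too. The median difference over segment 1 was −1.42 on this scale, beside 0.03 over the chr2L pairs.

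The 6 lower members of segment 2 in Su(var)3-9 RNAi were with the bin at chr2L:22336057-22346057 (−0.92, SE 0.27) and with 5 bins next to each other at chr2L:22456057-22506057, 330 kb to 370 kb away, with differences between −1.71 and −1.34. Segment 1 was also called lower with all 5 of these bins. The 1 higher member was segment 2 with the bin at chr2L:22386057-22396057, at 0.42 and −1.62 against −1.64 and −1.07 in mock RNAi, a difference of 1.23 (SE 0.21, adjusted p = 0.00708) after subtracting the mean at each distance. Its deposited scores overlapped between the groups. On those scores the only higher member whose groups did not overlap was segment 2 with the RpL5 run, at −1.60 and −1.79 (difference 0.16, SE 0.48, adjusted p = 0.872).

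The 17 calls on the deposited scores were lost, with 0 left, when any 1 of the WT, mock RNAi or HP1a RNAi libraries was left out, and became 165, all lower, without Su(var)3-9 RNAi replicate 1, where 23.5% of all bin pairs were called lower and 6.68% higher. Without replicate 2 there were 41 lower and 8 higher members, where 21.4% of all bin pairs were called lower and 3.99% higher. The 63 calls with the mean at each distance subtracted became fewer without either mock RNAi library, at the locus and among all bin pairs alike. The median difference over the members was −0.64 without mock RNAi replicate 1 and −0.60 without replicate 2, beside −0.65 with all libraries.

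Among the partner bins with genes, Clamp and cta had lower scores with segment 1 in both depletions than in mock RNAi. At the RpL5 run the order depended on the scale, and at the bin that holds most of RpL5 HP1a RNAi overlapped mock RNAi. Clamp, a zinc finger protein that binds GA-rich repeats and takes part in dosage compensation, lies in 2 bins that scored alike with segment 1 (chr2L:22156057-22176057): −1.04, −0.79 and −2.33 for WT, then −2.26 and −1.88 for mock RNAi, then −3.25 and −2.62 for HP1a RNAi, then −2.96 and −4.99 for Su(var)3-9 RNAi. Both depletions lay below mock RNAi, and WT replicate 3 lay below the other WT libraries and beside mock RNAi. With segment 2 the first Clamp bin scored −1.38 and −1.35 in mock RNAi and −1.31 and −0.77 in HP1a RNAi.

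Segment 1 with the first CG17018 bin (chr2L:22306057-22316057) scored −1.47 and −1.64 for mock RNAi, −3.54 and −1.94 for HP1a RNAi and then −2.04 and −4.57 for Su(var)3-9 RNAi. The other CG17018 bins held relative differences between −1.22 and −0.72 in HP1a RNAi and between −1.17 and −0.65 in Su(var)3-9 RNAi. At the RpL5 run, where contacts of segment 1 were already the second lowest in WT, HP1a RNAi scored −2.72 and −2.52 against −2.55 and −2.13 in mock RNAi, so the lowest mock RNAi library lay between the HP1a RNAi libraries, and Su(var)3-9 RNAi scored −2.64 and −6.26. As relative scores the RpL5 run had −2.29 and −2.43 in HP1a RNAi against −1.58 and −1.49 in mock RNAi, which did not overlap, and by limma the difference after subtracting the mean at each distance was −0.79 (SE 0.50, adjusted p = 0.437). The bin that holds most of RpL5 (chr2L:22426057-22436057) scored −2.92 and −1.53 in HP1a RNAi against −2.56 and −2.01 in mock RNAi. Its relative scores were −2.48 and −1.44 against −1.63 and −1.40, so these groups overlapped on both scales. Su(var)3-9 RNAi scored −2.75 and −5.57 with that bin, below mock RNAi. The CG17490 bin beyond RpL5 (chr2L:22436057-22446057) scored −2.72 and −2.22 for HP1a RNAi, then −2.85 and −4.88 for Su(var)3-9 RNAi, against −2.55 and −1.88 in mock RNAi. Su(var)3-9 RNAi lay below mock RNAi there, and HP1a RNAi overlapped mock RNAi. As relative scores HP1a RNAi had −2.26 and −2.14 against −1.65 and −1.27 in mock RNAi, which did not overlap. For HP1a RNAi the difference was −0.69 (SE 0.30, adjusted p = 0.261) after subtracting the mean at each distance. The bin with the edge of cta at 50 kb scored −2.76 and −2.47 for HP1a RNAi, then −2.04 and −4.07 for Su(var)3-9 RNAi, against −1.31 and −1.0 in mock RNAi, with differences of −1.65 (SE 0.23, adjusted p = 0.025) and −0.97 (SE 0.23, adjusted p = 0.0211) after subtracting the mean at each distance. The next bin, which holds most of cta, scored −2.75 and −2.61 for HP1a RNAi, then −2.07 and −3.65 for Su(var)3-9 RNAi, against −1.33 and −1.09, with differences of −1.67 (SE 0.19, adjusted p = 0.0128) and −0.77 (SE 0.19, adjusted p = 0.0251).

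Positive scores were rare at the locus. They made up 2.26%, 9.66% and 6.21% of the members for WT, then 2.82% and 3.41% for mock RNAi, then 1.14% and 0.568% for HP1a RNAi, then 5.68% and 0% for Su(var)3-9 RNAi. The other chr2L pairs were positive at 8.30%, 42.7% and 17.2% for WT, then 2.04% and 9.02% for mock RNAi, then 12.3% and 28.7% for HP1a RNAi, then 22.1% and 0.0407% for Su(var)3-9 RNAi. The share at the locus was the smaller one in 8 of the 9 libraries, mock RNAi replicate 1 being the exception.

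No member differed between the 2 kinds of control by the test. For mock RNAi against WT, 0 of 176 members were called on either scale, where 0% of all bin pairs were called, and at an unadjusted p under 0.05 there was 1 lower member on the deposited scores and 7 higher members, all of segment 1, after subtracting the mean at each distance. Here too the counts at the unadjusted p have no share of all bin pairs beside them. The lower member was segment 2 with the RpL5 run, at −1.89 and −1.82 against −1.20, −0.18 and −0.87 (difference −1.10, SE 0.44, adjusted p = 0.835), followed by segment 2 with the bins at 22426057 (−1.05, SE 0.58) and 22696057 (−0.74, SE 0.45). After subtracting the mean at each distance, both mock RNAi libraries lay above all WT libraries at 18 of the 88 partners of segment 1 and below them at 4, and at 5 and 6 of the 88 of segment 2, beside 13.8% and 12.2% of all bin pairs. On the deposited scores the median difference of mock RNAi from WT was −0.45 over the chr2L pairs tested and −0.35 over segment 1 and −0.44 over segment 2, so both segments lay near their arm.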

How the data were processed

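The authors deposited 1 file per library with a log2 score of observed over expected contacts for each pair of bins (10 kb, 5 kb on chrX, dm3). Per their methods, reads were mapped to primer pairs with bowtie2, normalised and compared with a non-crosslinked control, then binned and smoothed by the median in my5C. That control sample was not analysed here. Smoothing makes neighbouring bins share values, and the depth per library is unknown from the files.

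Here scores of 0 were set missing and bins with identical scores in all 9 libraries were merged (Python 3.11.15, pandas 2.3.3, numpy 2.4.6). Differences were tested with limma 3.58.1 (R 4.3.3, lmFit and eBayes, 4 group means, all 9 libraries) on the 23426 bin pairs of all arms with a score in every library, with Benjamini-Hochberg adjustment over all of them and a threshold of 0.05. The fit was made on the scores as deposited and after subtracting, in each library, the mean of the arm at each distance. Only the fit on the deposited scores was run on simulated data, in which bin pairs were independent, unlike the smoothed scores. The fit on the subtracted scores was not tested in this way. The 9 libraries were grouped by their labels. Per the methods the WT samples were biological replicates and the RNAi experiments were made in duplicate. With so few libraries, p-values measure the spread between these libraries, pooled over the 4 groups and not that of the 2 groups compared.

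The members, the lists and the added settings were chosen with earlier results of these data known. Named members were the 5 highest and 3 lowest partners of each segment in WT, the partner bins that overlap Clamp, CG17018, RpL5, CG17490 and cta, for which the study gives dm3 positions, and, in each direction of each comparison, the 3 members with the smallest p whose groups did not overlap. Others were named after their values were seen. The identity of lt came from RefSeq. Alternatives covered merging, centring, missing values, thresholds, the control group, the replicate number as a block and each library left out.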

Additional observations from a re-analysis of the deposited data

Results flagged for a closer look

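The 2 depletions were set against each other in the same limma fit, a comparison added after seeing the data, on scores with the mean of the arm at each distance subtracted. They differed at 15 members with an adjusted p under 0.05, 10 higher and 5 lower in HP1a RNAi, beside 1.15% and 0.815% of all bin pairs. Differences are given as HP1a RNAi minus Su(var)3-9 RNAi. In segment 1, scores were lower in HP1a RNAi next to light on the centromere side, by −1.39 at the bin starting at 22836057 and −1.44 at 22846057, and 140 kb away on the telomere side, by −2.09 at 22656057. They were lower in Su(var)3-9 RNAi in a block of 5 neighbouring bins 270 kb to 310 kb away, with differences of 1.39 at 22486057, 1.82 at 22496057, 2.19 at 22506057, 2.35 at 22516057 and 2.36 at 22526057, and at 21936057, with 0.99. Segment 2 showed the same division between its own flank and the bins farther out. Its first 2 centromere-side bins were lower in HP1a RNAi, by −1.36 at 22836057 and −1.56 at 22846057. Its bins at 22466057, 22476057, 22486057 and 22496057 were lower in Su(var)3-9 RNAi, with differences of 1.11, 1.21, 1.25 and 1.17. Neighbouring bins share values through the smoothing, so these are fewer than 15 separate measurements.

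On the deposited scores, 3 members of segment 2 lay above both mock RNAi libraries in both HP1a RNAi libraries and below both in both Su(var)3-9 RNAi libraries. The differences from mock RNAi were 0.25 and −1.40 at the bin starting at 22286057, 0.69 and −1.28 at 22296057, and 0.18 and −1.0 at 22936057. Tested against each other by limma on the deposited scores, HP1a RNAi was above Su(var)3-9 RNAi by 1.65 (SE 0.31, adjusted p = 0.045) at the first and 1.97 (SE 0.35, adjusted p = 0.0372) at the second, and the third did not pass (1.19, SE 0.52, adjusted p = 0.151). These were 2 of the 5 members called higher on this scale, with 0 lower, beside 1.01% and 0% of all bin pairs. With the mean at each distance subtracted none of the 3 passed (adjusted p = 0.419, 0.184 and 0.591). Neither direction against mock RNAi was called for these members, and both comparisons share the mock RNAi libraries. How many of all bin pairs moved in opposite directions was not counted. On the deposited scores the median difference over the chr2L pairs was 0.32 in HP1a RNAi and −0.75 in Su(var)3-9 RNAi. The arm as a whole thus moved in these directions, and the 3 members cannot be set apart from it.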

How the results depend on the processing

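Of 87 values under other settings, 50 stayed close to the value reported, 32 moved and 5 changed sign. Close meant a shift smaller than the replicate SD averaged over the 2 groups, or for calls a count of similar size. Changes of sign were counted only where the reported value exceeded that SD. For Su(var)3-9 RNAi this SD was wide. Its median over both segments was −2.55 ± 1.54 (SD, n = 2) against −1.14 in mock RNAi. As relative scores it was −1.15 against −0.34, a shift that still counted as close. The median score of the locus, both segments together, differed from mock RNAi by −0.29 in HP1a RNAi, and by −0.60 with bins not merged, −0.62 with libraries centred on the chr2L median and −0.66 with the distance mean subtracted. For mock RNAi minus WT it was −0.41, against 0.027 when centred and 0.0882 with the distance mean subtracted. The share of positive scores differed by −2.26 percentage points in HP1a RNAi, and by −5.27 unmerged, −3.34 with only the bins that overlap light, −14.7 centred, −15.0 with the distance mean subtracted and −0.849 with a threshold of 0.5. In Su(var)3-9 RNAi it differed by −0.276, and by −4.89 unmerged, −8.22 centred and −7.09 with the distance mean subtracted. For mock RNAi minus WT it was −2.93, against 6.54 centred and 4.84 with the distance mean subtracted. The cause of these changes was not tested.

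The settings for the relative median of segment 1 were chosen after seeing the data. The HP1a RNAi difference of −1.32 was −0.92 on the deposited scores, −1.25 centred, −1.26 without partners under 100 kb, −1.13 against WT and −1.20 against WT and mock RNAi together. The Su(var)3-9 RNAi difference of −1.55 was −2.09 on the deposited scores, −1.36 centred and −1.36 against WT. For mock RNAi minus WT, 0.19 became −0.29 on the deposited scores.

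The 0 members called for HP1a RNAi on the deposited scores became 29 in a fit of only the 2 groups, 17 with arms centred and 21 with the distance mean subtracted, and these 21 became 40 with WT and mock RNAi as the control. Among all bin pairs 0.32% were called lower and 0.209% higher with arms centred, and 1.43% and 1.31% in the fit that gave 40. The 17 for Su(var)3-9 RNAi became 0 with only the 2 groups, 59 centred, 63 with the distance mean subtracted, 0 with zeros kept, 49 unmerged and 89 with WT and mock RNAi as the control. Among all bin pairs 10.4% were called lower and 8.9% higher when centred, and 19.7% and 0.849% with WT and mock RNAi as the control. The calls for Su(var)3-9 RNAi thus rose over the whole data under these 2 settings. The 49 unmerged calls came from the fit that gave the 17, where 1.43% of all bin pairs were called lower and 0.162% higher. Same-numbered libraries did not deviate together (r = 0.017 for mock RNAi and HP1a RNAi, −0.336 for mock RNAi and Su(var)3-9 RNAi, 0.0231 for the 2 depletions). With 2 libraries in a group their deviations mirror each other, so this check cannot decide whether the numbers pair samples. The numbers were not taken to pair samples in the main fit. With replicate numbers fitted as a block, the 21 became 0, the 17 became 0 and the 63 became 64 (63 lower and 1 higher). Among all bin pairs 8.16% were called lower and 7.97% higher in the fit that gave 64, and 0% in the fits that gave 0. With the numbers crossed, the 17 became 0.

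With 1 library left out at a time, the locus median ranged from −0.43 to −0.15 for HP1a RNAi, −2.50 to −0.32 for Su(var)3-9 RNAi and −0.55 to −0.26 for mock RNAi minus WT. The share of positive scores ranged from −2.56 to −1.97, −3.12 to 2.56 (2.56 without Su(var)3-9 RNAi replicate 2 and −3.12 without replicate 1) and −4.82 to −1.12. The relative median of segment 1 ranged from −1.35 to −1.28, −1.67 to −1.44 and 0.16 to 0.23. Calls ranged from 0 to 25 for HP1a RNAi on the deposited scores (25 without either Su(var)3-9 RNAi library) and 0 to 42 with the distance mean subtracted, from 0 to 165 and 20 to 76 for Su(var)3-9 RNAi, and were 0 throughout for mock RNAi against WT.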
